A study of Mus musculus with 12 samples.

Results

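The genes described here are 9 genes of homologous recombination, chosen by symbol from the 14852 genes with input values, together with the ac4C peaks assigned to them: Brca1, Bard1, Rbbp8, Brca2, Palb2, Rad51c, Xrcc2, Xrcc3 and Rad54l. All 9 symbols were found, and 19 of the 19049 peaks were assigned to 8 of them. The study treated the mouse ovarian cancer line ID8, which came from ovarian surface epithelial cells, with the platinum drug cisplatin and compared it with control cells of that line. The series title places the work in cisplatin-induced immunosuppression, and its design asks how NAT10 and the RNA base N4-acetylcytidine (ac4C), which NAT10 makes, regulate mRNA under cisplatin. From 3 cisplatin and 3 control samples, fragmented RNA was sequenced both directly (input) and after pull-down with an ac4C antibody (IP), making 4 groups of 3 libraries, 12 in all. The 6 input libraries have a value for each library, whereas the IP libraries enter through the authors' peak table. The labels give neither dose nor duration of cisplatin. All samples are of 1 cell line. The labels do not tell separate cultures from repeat preparations, and a p-value here therefore covers only library-to-library spread, possibly technical.

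Homologous recombination repairs a broken DNA duplex by copying the intact sister chromatid, and it also restores the break left when a platinum crosslink between strands is unhooked. The end is first cut back to single-stranded DNA, a step that RBBP8 (CtIP) helps to start and that BRCA1 with its partner BARD1 promotes. PALB2 joins BRCA1 to BRCA2, which prepare the single strand for the search for homology, RAD51C, XRCC2 and XRCC3 aid this step in complexes, and RAD54L, a motor protein, drives strand invasion. In the ovary the pathway is known because inherited BRCA1 and BRCA2 mutations raise the risk of ovarian cancer and because tumours that lack the pathway tend to be sensitive to platinum.

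Input libraries held 21437552 to 29280272 reads in listed genes after cisplatin and 19921365 to 21111362 in control cells, as recovered from the FPKM values (fragments per kilobase of gene, scaled to sequencing depth). Libraries of a group correlated at r of 0.989 or more over the 11449 tested genes. All 5 p53 target genes were higher after cisplatin; Plk2 averaged 357 ± 2.21 FPKM in cisplatin and 63.1 ± 1.6 FPKM in control libraries and Cdkn1a 86.8 ± 4.59 and 3.20 ± 0.27 FPKM (SD, n = 3 each, as for all means that follow). Of 9 tested markers of mesothelium and ovarian surface epithelium, 5 were higher and 3 lower. Wt1 was lower, at 12.4 ± 0.598 FPKM after cisplatin and 45.1 ± 1.08 FPKM in control cells, and Krt18 and Krt8 were higher, at 894 ± 46.5 and 967 ± 36.7 FPKM after cisplatin and 473 ± 5.54 and 587 ± 10.8 FPKM in control cells. The other 2 lower markers were Upk3b (61.1 ± 4.76 FPKM after cisplatin, 81.6 ± 1.78 in control cells) and Muc16 (0.233 ± 0.0405 and 1.21 ± 0.0729 FPKM), which was tested only through the control libraries, and Krt7, not tested, stood at 0.0105 ± 0.00925 and 0.178 ± 0.138 FPKM, these 3 named after their values were seen. Of 6 leukocyte markers 1 had values, Cd68, at 8.89 ± 1.21 FPKM after cisplatin and 2.41 ± 0.175 FPKM in control cells, and of 4 endothelial markers 1, Tek, at 2.64 ± 0.146 and 0.846 ± 0.109 FPKM. Of 5 fibroblast markers 3 had values, 1 called higher and 2 lower. They summed to 17.1 to 18.7 FPKM after cisplatin and 23.7 to 24.6 FPKM in control cells. Among all genes tested, 40.1% were called higher and 41.1% lower. The part of these markers in the results was not tested.

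Promoter sequences are shown for 4 of the genes whose RNA differed between the treatments: Bard1 and Brca2, which were lower after cisplatin and carry a match to the E2F element, Rad51c, which was higher and carries one too, and Xrcc3, which had the largest fold. Each runs 5′ to 3′ from 250 bases before to 50 bases after a RefSeq start on GRCm38.p6, and capitals mark matches on either strand to the elements searched.
Bard1, chr1:71102923-71103222, minus strand: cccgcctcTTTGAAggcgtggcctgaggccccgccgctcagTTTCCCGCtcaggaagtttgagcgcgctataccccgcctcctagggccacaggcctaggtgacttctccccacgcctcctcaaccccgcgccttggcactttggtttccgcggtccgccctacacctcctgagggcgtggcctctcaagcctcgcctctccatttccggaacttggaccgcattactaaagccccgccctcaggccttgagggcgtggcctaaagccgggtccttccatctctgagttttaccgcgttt
Brca2, chr5:150522371-150522670, plus strand: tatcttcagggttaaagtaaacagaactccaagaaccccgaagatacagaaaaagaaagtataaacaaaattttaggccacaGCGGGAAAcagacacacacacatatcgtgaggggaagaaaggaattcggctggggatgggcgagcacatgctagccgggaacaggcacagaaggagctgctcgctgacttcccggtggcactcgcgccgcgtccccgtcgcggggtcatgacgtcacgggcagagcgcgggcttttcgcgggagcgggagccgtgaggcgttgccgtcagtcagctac
Rad51c, chr11:87404905-87405204, minus strand: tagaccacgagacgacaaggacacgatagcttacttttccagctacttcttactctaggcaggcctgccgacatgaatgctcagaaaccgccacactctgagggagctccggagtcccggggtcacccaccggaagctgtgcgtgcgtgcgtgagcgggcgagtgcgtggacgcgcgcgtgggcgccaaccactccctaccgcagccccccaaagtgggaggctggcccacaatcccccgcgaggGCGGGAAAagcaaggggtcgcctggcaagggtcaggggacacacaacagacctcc
Xrcc3, chr12:111813830-111814129, minus strand: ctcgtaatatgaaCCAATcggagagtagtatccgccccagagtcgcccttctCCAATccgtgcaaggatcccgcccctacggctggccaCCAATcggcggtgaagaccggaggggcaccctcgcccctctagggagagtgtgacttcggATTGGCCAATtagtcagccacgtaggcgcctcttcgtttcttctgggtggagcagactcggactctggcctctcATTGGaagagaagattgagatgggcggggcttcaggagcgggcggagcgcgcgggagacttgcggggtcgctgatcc
The E2F element was searched as TTTCCCGC, TTTCGCGC, TTTGCCGC and TTTGGCGC, the CHR element of cell cycle promoters as TTTGAA and TTCGAA, the CCAAT box as CCAAT and the NRF1 element as GCGCA, any 1 base and GCGC, on both strands, and no 2 matches overlapped in these promoters. The promoter table held 9 promoters for 7 of the genes, and the 2 of Rad54l differ by 1 base. E2F words were in 4 of the 9, from Bard1, Brca2 and both starts of Rad51c, where 2.26% of all 32851 promoters held one. CCAAT was in 5, from Brca1, Palb2, Xrcc3 and both starts of Rad54l, against 37.4% of all promoters. A CHR word stood in Bard1 alone among them (19.2% of all promoters) and an NRF1 element in Palb2 alone (4.6%). The Xrcc3 promoter held 6 CCAAT words, 2 of them in the reverse direction. Of the genes with an E2F word, Bard1 and Brca2 were lower. Rad51c was higher, but it was tested only through the cisplatin libraries and had to lie higher. These matches describe letters, not binding.

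The first comparison asked whether the RNA of these genes differed between cisplatin and control cells. Xrcc2, Rad54l and Rad51c were higher after cisplatin, Rbbp8, Bard1 and Brca2 were lower, and the largest difference of a tested gene was in Xrcc2, at 2.24-fold. Brca1, the most abundant after cisplatin, and Palb2 did not pass the test. Xrcc3 had almost no reads in control cells and about 1 FPKM after cisplatin. Of the 9 genes, 8 had at least 1 FPKM in 3 libraries and were tested with limma, and 3 were called higher and 3 lower at an adjusted p of 0.05. Over all 11449 genes tested, 40.1% were called higher and 41.1% lower, so these counts are near the background. In bulk RNA, fewer cells expressing a gene and less of its RNA per cell cannot be told apart. The median log2 change was 0.07 over the 8 genes and -0.003 over all genes tested. Rad51c reached the level for testing only through the cisplatin libraries and so had to lie higher there. Without Rad51c, 2 of 7 tested genes were higher (28.6%) and 3 lower (42.9%). Over the 9653 genes not tested through a single treatment alone, 39.96% were higher and 37.88% lower.

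Of the 8 tested genes, 3 had all cisplatin libraries above all control libraries, and 3 had them all below. Among all genes tested the groups lay apart in this way for 41.8% upward and 42.4% downward. Xrcc3, not tested, lay wholly above as well. For each of these 7 genes the exact two-sided permutation test gave p = 0.1, the smallest that 3 against 3 allows, while Brca1 gave 0.3 and Palb2 0.7.

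**Figure D1:**
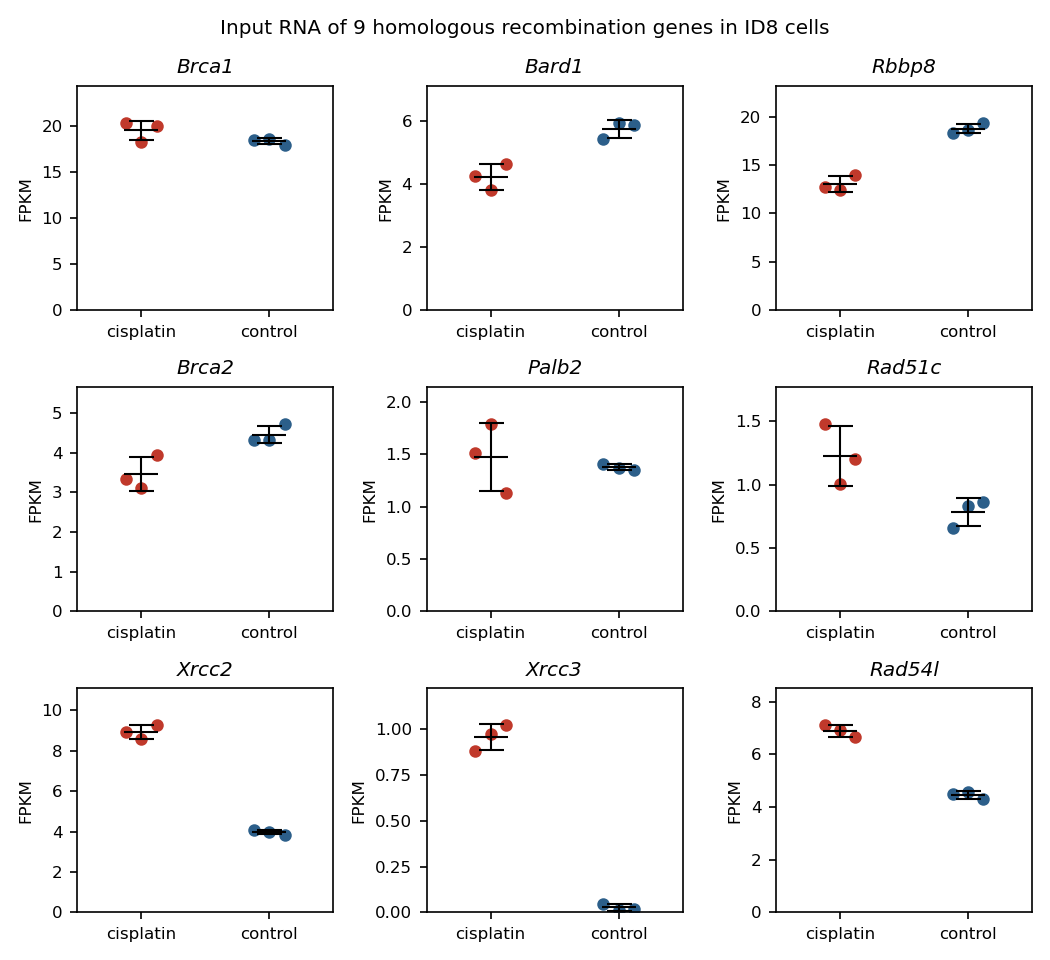
Input RNA of each gene in FPKM (vertical axes from 0, scaled per gene), with 3 cisplatin libraries left and 3 control libraries right; points are libraries and bars are the mean and SD. The groups overlap in Brca1 and Palb2 and lie apart in the other 7 genes.

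Of the genes that act on the broken end, Rbbp8 (chr18:11633276-11743207, RefSeq span on GRCm38.p6, as for the spans that follow), whose product helps to start the cutting back, was lower. It measured 12.7, 12.5 and 14.0 FPKM in cisplatin replicates 1, 2 and 3, against 18.4, 18.6 and 19.3 FPKM in control replicates 1, 2 and 3. Every cisplatin library was below every control library. The mean fell to 13.1 ± 0.807 FPKM in cisplatin libraries, against 18.8 ± 0.481 in control libraries, a log2 change of -0.49 (SE 0.051, limma adjusted p = 6.09e-05).

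Brca1 (chr11:101488761-101551955), which encodes the ubiquitin ligase subunit that favours repair by recombination, measured 20.3, 18.3 and 19.9 FPKM after cisplatin and 18.4, 18.6 and 17.9 FPKM in control cells. Cisplatin replicate 2 lay inside the control range. The log2 change was 0.08 (SE 0.047, limma adjusted p = 0.133); without cisplatin replicate 2 it was 0.13 and passed (adjusted p = 0.0166). Over the 11449 tested genes, Brca1 followed most closely the pattern of Ccz1, Senp2 and Med4 over the 6 libraries (Pearson r of 0.985, 0.977 and 0.977 on log2(FPKM + 1)), and 82 genes had an r above 0.9.

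Bard1 (chr1:71027535-71103141) encodes the partner of BRCA1. It measured 4.25, 3.83 and 4.64 FPKM after cisplatin, against 5.42, 5.93 and 5.88 FPKM in control cells. Every cisplatin library was lower. The log2 change of Bard1 was -0.37 (SE 0.072; adjusted p = 0.00218 in limma). The ratio of the means was 0.738.

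Among the genes that act on the single strand, Brca2 (chr5:150522297-150570147), a recombination mediator, measured 3.35, 3.12 and 3.94 FPKM after cisplatin, against 4.32, 4.33 and 4.71 FPKM in control cells. The groups did not overlap, and the closest libraries were cisplatin replicate 3 and control replicate 1. The log2 change was -0.29 (SE 0.080, limma adjusted p = 0.0109). Palb2 (chr7:122107262-122132980), the bridge between BRCA1 and BRCA2, measured 1.51, 1.78 and 1.13 FPKM after cisplatin and 1.41, 1.37 and 1.35 FPKM in control cells. The cisplatin libraries lay on both sides of the control libraries, and their SD was 0.328 against 0.0301 FPKM. For Palb2 the log2 change was 0.05 (SE 0.0998, limma adjusted p = 0.662).

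The products of Rad51c and Xrcc2 share a complex. Xrcc2 was higher after cisplatin, and so was Rad51c, which was tested only through the cisplatin libraries. Of the other genes of the complex, given below, Rad51d was not called. Rad51b was lower, tested only through the control libraries. Xrcc2 (chr5:25689814-25705797), a subunit of the complex that also holds RAD51B, RAD51C and RAD51D, measured 8.95, 8.60 and 9.26 FPKM after cisplatin, against 4.09, 4.00 and 3.85 FPKM in control cells. The lowest cisplatin library was above the highest control library by more than 4 FPKM. The log2 change was 1.00 (SE 0.051, limma adjusted p = 1.64e-06), larger in size than that of 75.9% of all genes tested.

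Rad51c (chr11:87376645-87404954), which encodes a subunit of this complex and of a second one with XRCC3, measured 1.47, 1.00 and 1.2 FPKM after cisplatin, against 0.656, 0.827 and 0.864 FPKM in control cells. The groups lay apart, with cisplatin replicate 2 nearest to control. The log2 change was 0.32 (SE 0.093; adjusted p = 0.0153 in limma). The ratio of the means was 1.57. The call was lost without control replicate 1 (log2 change 0.26, adjusted p = 0.0524), and the log2 change was larger with a pseudocount of 0.1 (0.58), with voom on recovered reads (0.55) and with quantile normalization (0.61).

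Xrcc3, the partner of RAD51C in the second complex, had 59, 82 and 62 reads after cisplatin (0.883, 0.977 and 1.02 FPKM), against 3, 1 and 1 reads in control cells (0.0483, 0.0159 and 0.0168 FPKM). The groups lay far apart, and the control level rests on 5 reads in all. Per read in listed genes the ratio was 33.8, with an exact 95% interval of 14.3 to 105 that covers counting error only. Xrcc3 did not reach 1 FPKM in 3 libraries; fitted without a filter it was called higher (log2 change 0.93 on log2(FPKM + 1), limma adjusted p = 3.61e-06), as were 37.3% of the 14852 genes in that fit. Its RefSeq span on GRCm38.p6 (chr12:111803192-111813893) shares 4653 bases with that of Klc1, which lies on the other strand and measured 61.1 ± 0.756 FPKM after cisplatin and 59.2 ± 0.287 FPKM in control cells. The libraries were strand-specific, but no source used here says whether reads were counted by strand, and without that reads of the shared stretch cannot be told apart.

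Rad54l (chr4:116094261-116123700), which encodes the motor protein of strand invasion, measured 7.10, 6.91 and 6.66 FPKM after cisplatin, against 4.51, 4.58 and 4.30 FPKM in control cells. Every cisplatin library was higher, and the log2 change was 0.53 (SE 0.051, limma adjusted p = 4.08e-05). Its span overlaps that of Lrrc41 on the other strand by 2849 bases, and Lrrc41 was lower after cisplatin, at 4.00 ± 0.445 against 5.99 ± 0.122 FPKM.

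The order of the levels, which FPKM gives per gene length, differed between the treatments. After cisplatin it was Brca1, Rbbp8, Xrcc2, Rad54l, Bard1, Brca2, Palb2, Rad51c and Xrcc3, and the ranges of neighbours overlapped between Bard1 and Brca2, between Palb2 and Rad51c and between Rad51c and Xrcc3. In control cells it was Rbbp8, Brca1, Bard1, Rad54l, Brca2, Xrcc2, Palb2, Rad51c and Xrcc3, with overlap between Rbbp8 and Brca1 and between Rad54l and Brca2. Xrcc2 had rank 3 after cisplatin and rank 6 in control cells, and Bard1 rank 5 and rank 3. The 5 genes Brca1, Brca2, Palb2, Rad51c and Xrcc2 also count among the Fanconi anaemia genes of crosslink repair. Of these, Xrcc2 was higher, Brca2 lower and Brca1 and Palb2 not called, while Rad51c was higher but had to lie so. Over all genes tested, 40.1% were called higher and 41.1% lower.

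In the authors' deposited table, whose test no source used here names, the same 6 tested genes had an adjusted p under 0.05 in the same directions. It compares the same 6 input libraries, and the share of all genes it calls was not counted. Xrcc3 was also called there (log2 fold change 5.15, adjusted p = 1.6e-11), while Brca1 (0.119) and Palb2 (0.592) had larger adjusted p-values in the authors' deposited table.

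**Figure D2:**
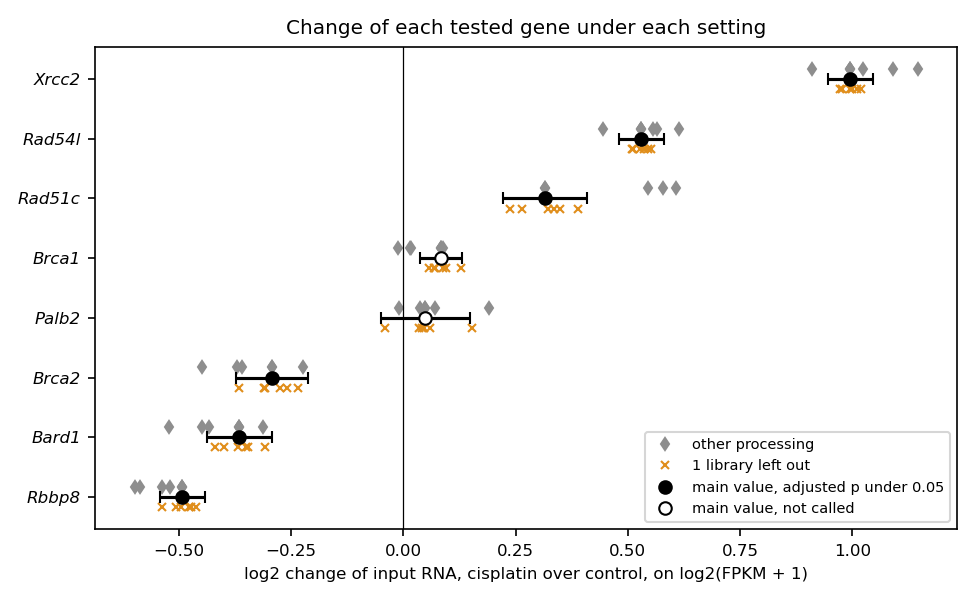
Log2 change of each tested gene on log2(FPKM + 1), cisplatin over control (horizontal axis), with its SE; grey diamonds are other processing settings and orange crosses are fits with 1 library left out. Xrcc2 stayed between 0.91 and 1.15, and the values of Brca1 and Palb2 fell on both sides of 0.

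The other genes of the pathway were taken from lists by role and also moved both ways. Of 52 genes in these lists, 46 were tested, 15 were higher and 20 lower, which is 32.6% and 43.5%, beside the background of all genes given above. Of the 20 lower, 4 (Babam2, Fam35a, Rad51b and Rad52) had no cisplatin library at 1 FPKM and were tested only through the control libraries, so they had to lie lower. Of the other 42 genes, 15 were higher (35.7%) and 16 lower (38.1%). Over all 9653 genes not tested through a single treatment alone, 39.96% were higher and 37.88% lower. All 3 genes of RPA, which coats single-stranded DNA, were higher, with Rpa2 at 15.6 ± 1.35 after cisplatin and 9.19 ± 0.0873 FPKM in control cells.

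Of 13 tested recombination mediators, 3 were higher and 7 lower. Of the lower, Rad51b and Rad52 were tested only through the control libraries and had to lie lower. Without these 2, 3 of 11 were higher and 5 lower. Among all genes not tested through a single treatment alone, 39.96% were higher and 37.88% lower. Rad51ap1, which promotes strand pairing, was higher, at 9.30 ± 0.788 FPKM after cisplatin and 5.03 ± 0.266 FPKM in control cells. Rad52, which anneals single strands, averaged 0.505 ± 0.073 FPKM after cisplatin and 3.24 ± 0.108 FPKM in control cells, and Swi5, which acts with Sfr1, 15.2 ± 0.459 and 24.0 ± 0.396 FPKM. Of the other genes of the complex with Xrcc2, Rad51b, named after its values were seen, was at 0.140 ± 0.155 FPKM after cisplatin and 1.18 ± 0.188 FPKM in control cells, and Rad51d, also named afterwards, was not called, at 3.84 ± 0.275 and 4.03 ± 0.435 FPKM.

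Of 8 genes of end resection, 2 were higher and 4 lower. Among all genes tested, 40.1% were called higher and 41.1% lower. The nuclease gene Mre11a averaged 26.3 ± 0.881 FPKM after cisplatin and 19.6 ± 0.553 FPKM in control cells, and Samhd1, which aids resection, 10.1 ± 0.759 and 7.34 ± 0.275 FPKM. The helicase gene Wrn was lower, at 2.36 ± 0.0403 after cisplatin and 6.26 ± 0.267 FPKM in control cells. In joint molecule processing 4 of 12 tested were higher and 3 lower. Gen1, a nuclease gene, was higher, at 5.06 ± 0.392 FPKM after cisplatin and 3.11 ± 0.0861 FPKM in control cells. Slx4, which encodes a nuclease scaffold, was higher as well, at 9.94 ± 0.168 and 6.77 ± 0.348 FPKM, and the helicase gene Recql5 was lower, at 1.30 ± 0.0939 and 4.46 ± 0.167 FPKM.

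The BRCA1-A complex, which recruits BRCA1 to ubiquitin at breaks, had 4 of 5 genes lower and 1 higher. Of the lower genes, Babam2 was tested only through the control libraries and had to lie lower. Without Babam2, 3 of 4 were lower and 1 higher. Among all genes not tested through a single treatment alone, 37.88% were lower and 39.96% higher. Babam2 had 0.0258, 0 and 0.00948 FPKM after cisplatin, against 3.83, 4.42 and 4.04 FPKM in control cells. Uimc1 (RAP80), at 9.09 ± 0.306 after cisplatin and 13.0 ± 0.523 FPKM in control cells, was lower as well, and Abraxas1 was higher at 3.88 ± 0.263 and 2.04 ± 0.266 FPKM. Of 5 tested genes that protect ends from resection, 2 were higher and 2 lower. Of the lower, the shieldin gene Fam35a was tested only through the control libraries and had to lie lower. Without Fam35a, 2 of 4 were higher and 1 lower. Fam35a averaged 0.348 ± 0.0748 FPKM after cisplatin and 2.28 ± 0.112 FPKM in control cells. Mad2l2 averaged 2.23 ± 0.184 and 4.17 ± 0.339 FPKM, and Rif1 48.1 ± 3.82 and 39.2 ± 0.885 FPKM.

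Expression of recombination genes is known to be tied to S and G2 phase, so cycle genes were measured beside them. All 15 S phase genes were higher, with a median log2 change of 0.75; their summed level was 971 to 1006 FPKM in cisplatin and 606 to 614 FPKM in control libraries, and Ccne1 averaged 9.85 ± 0.893 and 1.08 ± 0.084 FPKM. Of 12 genes of G2 and M phase, 7 were higher and 4 lower. They summed to 619 to 649 FPKM after cisplatin and 553 to 556 FPKM in control cells. Among all genes tested, 40.1% were called higher and 41.1% lower. The part of the cycle genes in the results was not tested.

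**Figure D3:**
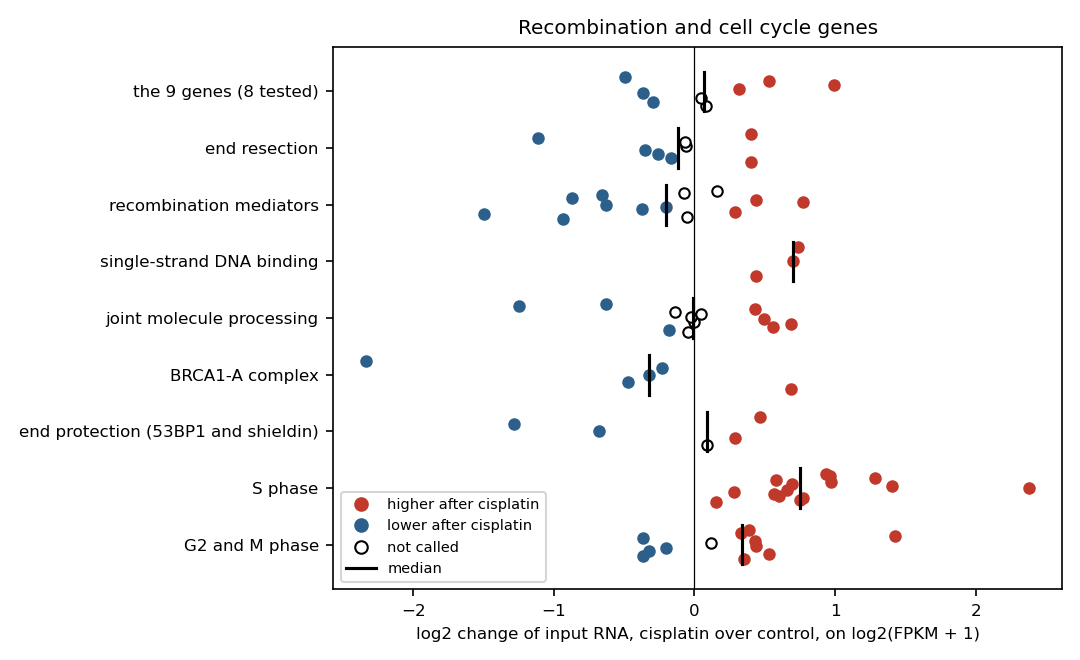
Log2 change on log2(FPKM + 1), cisplatin over control, of each tested gene (points) by role, with the 8 tested genes of the 9 on top and the median of each list as a bar; red is called higher, blue called lower, white not called. The 15 S phase genes lie above 0, whereas the lists of recombination genes other than single-strand DNA binding spread to both sides.

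The second comparison concerned ac4C on these RNAs. The peak table gives, for each peak, a fold enrichment computed by the authors and a log2 difference between treatments, whose direction the headers leave unstated, so signs are given as deposited. Of the 19 peaks, 6 had an adjusted p of the difference under 0.05 in the authors' deposited table, all with a positive log2 difference. Among all 19049 peaks, 36.5% were called positive and 9.62% negative, so 6 of 19 positive is near the background. The 6 peaks lay in Brca1 (3), Brca2, Bard1 and Rad54l (1 each). Rad51c had no assigned peak.

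Brca1 carried 5 peaks, and 8.30% of the 8797 genes with a peak carry as many or more. The 3 called peaks, all in coding sequence, were centred at 42.9%, 44.7% and 50.03% of the gene span from its 5′ end, introns included. They were chr11:101524635-101525084 (mm10, as all peaks), with a fold enrichment of 7.05 and a log2 difference of 2.52 in the authors' deposited table, chr11:101523617-101523857, with 5.71 and 3.21, and chr11:101517327-101523348, a peak of 3 exonic blocks, with 31.7 and 4.67. Their adjusted p-values were 1.7e-10, 0.00269 and 1.74e-07 in the authors' deposited table. The other 2 peaks of Brca1, in coding sequence at 79.6% and in the 3′ UTR at 99.7% of the span, had log2 differences of 1.71 and 0 and were not called. Input RNA of Brca1 did not pass the test.

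Bard1 and Brca2, which were lower in input RNA, each had 1 called peak. The Bard1 peak chr1:71075081-71075321 had a fold enrichment of 8.66 and a log2 difference of 4.91 (adjusted p = 0.000525 in the authors' deposited table), and its second peak, of 3 blocks, had 15.3 and 1.46. Brca2 had 4 coding peaks, and the called one, chr5:150556878-150557148, had a fold enrichment of 12.1 and a log2 difference of 4.32 (adjusted p = 0.0316 in the authors' deposited table). A Brca2 peak 66.7% along the span had a similar log2 difference of 4.58 with an adjusted p of 0.0741 in the authors' deposited table, and the other 2 had 0.152 and 0.263.

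The called peak of Rad54l, chr4:116096153-116096273, had a fold enrichment of 14.1 and the largest log2 difference of the 19, at 5.13 (adjusted p = 0.0302 in the authors' deposited table). It lies in the stretch shared with Lrrc41, so the RNA it came from is uncertain without a known strand setting. The authors class it as exon. The single peak of Xrcc3, chr12:111804507-111804999, lies in the stretch shared with Klc1; its fold enrichment of 68.2, above 99.4% of all peaks, stands beside 5 control reads of Xrcc3 in input, and its log2 difference of 2.07 was not called (adjusted p = 0.447 in the authors' deposited table). No peak assigned to Klc1 or Lrrc41 overlaps these.

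Xrcc2, whose input RNA was higher, had 3 peaks in the last part of its span, centred at 84.3% to 93.0%, with fold enrichments of 43.5, 28.2 and 2.46. Their log2 differences were -3.04, 2.24 and 2.30, and none was called. Rbbp8 had 2 coding peaks, at 80.7% and 82.5% of its span, with fold enrichments of 7.05 and 11.8 and log2 differences of -0.96 and 0.193, neither called. Palb2 had 1 peak with a fold enrichment of 7.05 and the weakest p of the 19 (log10 p of -1.40 in the authors' deposited table).

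By class, 14 of the 19 peaks (73.7%) lay in coding sequence, 3 in a 3′ UTR and 2 in the class exon, where 50.5% of all peaks lay in coding sequence and 29.5% in a 3′ UTR. None lay in a 5′ UTR, as did 2.28% of all peaks. The median fold enrichment was 9.4 for the 19 peaks and 7.05 for all peaks, and the median log2 difference 2.07 and 1.58. A log2 difference above 0 was deposited for 16 of the 19 (84.2%) and for 75.8% of all peaks.

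**Figure D4:**
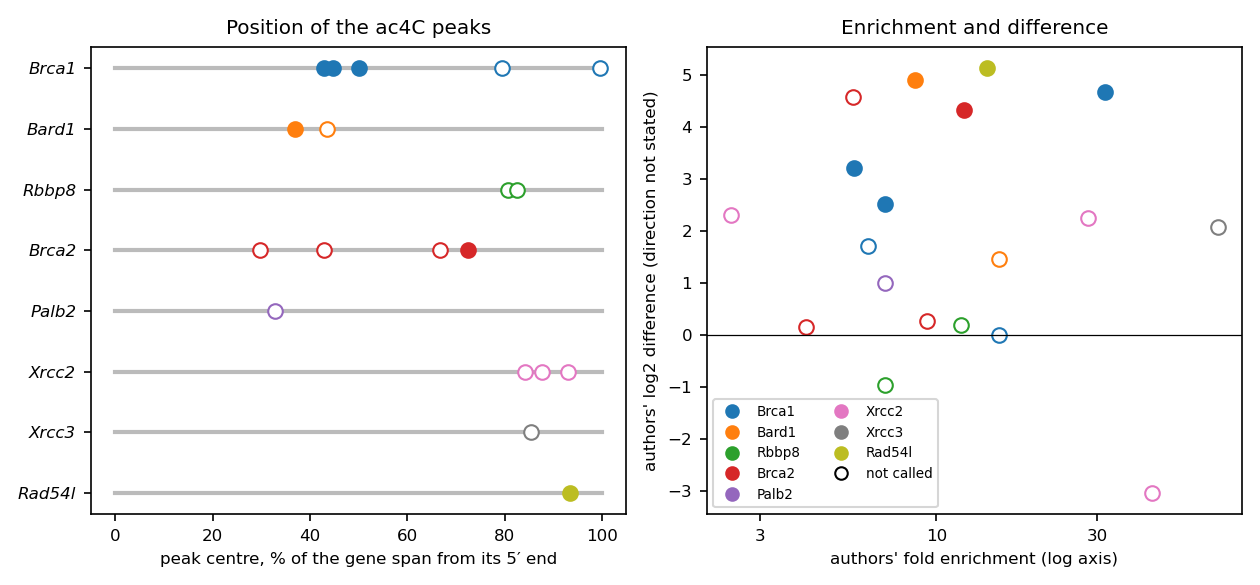
Left, centre of each of the 19 ac4C peaks as % of the gene span from the 5′ end; right, the authors' log2 difference (vertical, direction not stated) against their fold enrichment (log axis), coloured by gene, with filled points for an adjusted p under 0.05. The span includes introns. The 6 called peaks have log2 differences of 2.52 to 5.13, and the 3 called Brca1 peaks lie near the middle of the gene span.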

How the data were processed

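Strand-specific libraries were made from rRNA-depleted, fragmented RNA, per the labels' protocols. HISAT2, HOMER, fastp, FastQC and mm10 are named in the submitters' processing notes; no source used here gives the peak caller, the counter or its strand setting. Expression values are FPKM made by the authors, who also deposited, for each gene, a log2 fold change with p-values. For peaks the authors deposited a fold enrichment ratio, a log2 difference and log10 p scores, with no value per library. Peak positions were converted to counting from 1.

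Tests used limma 3.58.1 (R 4.3.3; lmFit, eBayes with a trend) on log2(FPKM + 1), cisplatin over control, for genes of 1 FPKM or above in 3 of the 6 input libraries, with Benjamini-Hochberg adjustment over all genes tested and a threshold of 0.05. This scale understates changes of low genes. Whole reads were recovered from the FPKM steps for 14850 of 14852 genes (tolerance 0.0001), for depths and for voom as an alternative. The fit was also run on simulated data with few changed genes and the spread of the control libraries. That setting differs from these data, so the run checks the code and cannot give the error rate here. No 2 libraries of a group differed by sampling noise alone (chi-square per gene of 2.35 or more). Deviations from the group mean correlated little between libraries of the same replicate number (r of 0.097, -0.116 and 0.043). With 3 libraries per group this cannot exclude that samples were paired. Alternatives changed the pseudocount, filter, scaling, test or libraries. Named were the 9 genes, all their peaks, the 3 genes most like Brca1 and genes from among the 3 of each list with the smallest adjusted p, groups apart and a mean of at least 1 FPKM, except where said; for RPA, p53 targets, cell cycle and fibroblast lists not all 3 are named. The 9 genes and the lists were chosen with earlier results of these data known, and 1 gene of the lists is not reported here. Spans and promoters are from RefSeq GRCm38.p6, the assembly behind mm10; peak sequences were not used here. Figures were drawn with matplotlib 3.10.9.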

Additional observations from a re-analysis of the deposited data

How the results depend on the processing

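The calls of Xrcc2, Rad54l, Rbbp8, Bard1 and Brca2 kept their direction and side of the threshold in every alternative that could test them; Brca2 could not be tested at 5 FPKM, where Palb2 and Rad51c were left out too, and Rad51c was left out after rescaling to a common sum. Rad51c lost its call without control replicate 1, and Brca1 gained one without cisplatin replicate 2. The number of the 9 genes called higher was 2 to 4 and lower 3 in each fit without 1 library. Over all genes, 4366 to 4632 were called higher and 4451 to 4766 lower in those fits. The median log2 change of the 8 tested genes was 0.04 to 0.11 there. Only 2789 genes were lower at 5 FPKM, where fewer genes were tested. After rescaling to a common sum, the median log2 change was -0.011 over the 7 genes still tested, Rad51c being left out. Rescaling moved the median of all genes to -0.09. Quantile normalization gave 0.10 over the 8 tested genes, so these 2 medians are not over the same genes. Rescaling split the calls over all genes into 4064 higher and 5316 lower, and voom into 4281 and 5186. The Brca2 log2 change was -0.45 with voom. With the replicate number as a block, 3 of the genes were higher and 3 lower, as without it (4592 and 4684 over all genes). At an authors' adjusted p under 0.01, 4 of the 6 positive peaks remained called, which ended the calls in Brca2 and Rad54l. At that threshold 0 were negative, and the share of all peaks called was not counted. Depth limits Xrcc3, with 5 control reads, and Rad51c and Palb2, with 637 and 1531 reads in all.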

Other observations

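Deposited peak values are shared exactly by many peaks. A fold enrichment of 7.05, held by 3 of the 19 peaks (in Brca1, Palb2 and Rbbp8), is held by 823 peaks in all and is the median of the table. A log2 difference of exactly 1 was deposited for the Palb2 peak and for 1352 peaks in all, and exactly 0 for 1 Brca1 peak and 228 peaks in all. Such peaks have no order among themselves in that value.

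Genes close to 0 in 1 treatment occurred on both sides within the pathway: Babam2 averaged 0.0118 FPKM after cisplatin and 4.10 FPKM in control cells, while Xrcc3 averaged 0.961 and 0.027 FPKM. How reads were assigned to either gene was not tested.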
